A study of Gossypium hirsutum with 18 samples.

Results

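MYB306 is the name of a plant transcription factor of the R2R3-MYB family, first given to a snapdragon gene. In upland cotton (Gossypium hirsutum), an allotetraploid with an A and a D subgenome, 9 gene copies with this name were found among 11153 genes listed as different between the ovules of Xu142 and Xu142fl. A copy was taken as a member when the full protein name in its deposited description was that of the MYB306 protein, and all 9 carry the Pfam Myb DNA-binding domain in that description. Being listed means that the authors had called the gene between the genotypes. The contrast of Xu142 with Xu142fl therefore chose the members, and their levels and ratios between the genotypes are given below as a description, without a test.

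The study sequenced total RNA from ovules in 18 libraries, which make 6 groups of 3 replicates: Xu142 and Xu142fl at -1, 0 and 1 day post-anthesis (DPA, days from flower opening). All libraries carry the treatment label Unhandled. As background, Xu142 bears fibers on its seeds, whereas its mutant Xu142fl forms neither fuzz nor lint. The labels do not say that replicates came from separate plants, so the spread between them may be technical. An ovule library holds many cell types, and in such bulk RNA fewer cells of a type and less RNA per cell cannot be told apart.

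R2R3-MYB factors bind DNA through a pair of MYB repeats. The closest Arabidopsis relatives of the name MYB306 are MYB30, MYB60, MYB94 and MYB96. In that plant MYB30 and MYB96 act on genes that make very-long-chain fatty acids and cuticular wax, MYB94 acts with MYB96 on wax genes, and MYB60 acts in guard cells. Fibers are single cells of the ovule epidermis that begin to protrude around flower opening, and very-long-chain fatty acids are known to promote their elongation. No role of any single cotton copy was tested in these libraries.

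The deposited values are normalised reads per gene, scaled within each day's table on its own. Reads recovered from them ran from 130502 to 346187 per library over the listed genes at 0 DPA and from 2833696 to 6388114 at 1 DPA, which are sums over listed genes and not library depths. Of the ovule and seed coat markers 25 were listed at 1 DPA, 18 higher and 7 lower in Xu142fl (median log2 ratio 1.25). That is 28.0% lower, against 67.5% of all listed genes on that day. The ovule identity gene AGL11 (Gh_D05G274800), picked from this list after its values were seen, was among the lower ones, at 2388 normalised reads in Xu142 and 1086 in Xu142fl. None of the ovule and seed coat markers was listed at -1 DPA. At 0 DPA the Xu142 group held transcripts otherwise seen in Xu142fl. The genes counted stood in Xu142 at no more than 3% of their Xu142fl level at 1 DPA and were listed as higher in Xu142fl at -1 DPA. At 0 DPA, where only called genes have values, 110 of them could be read. Of these 110, 48 stood in Xu142 at 10% or more of their Xu142fl level at 0 DPA, with a median of 23.2% among them, and 55 stood under 5%. Genes not called at 0 DPA are not in these counts. The part of this in the values of the MYB306 copies at 0 DPA was not tested.

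Most copies were listed on the last day alone. None of the 9 was listed at -1 DPA, where the authors' deposited table called 1.5% of 58161 genes tested, 0.676% as lower and 0.824% as higher in Xu142fl. At 0 DPA 3 copies were listed, 2 lower and 1 higher in Xu142fl, against 2.38% of all 57326 genes tested, of which 1.51% were lower and 0.876% higher. At 1 DPA all 9 were listed, 8 lower and 1 higher, against 17.6% of 61474 genes tested, of which 11.9% were lower and 5.7% higher. These counts follow from the choice of members, and nothing is read from them against the background. A copy that is not listed on a day either did not differ or missed the authors' criteria there.

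The criteria were an adjusted p under 0.05 and a log2 fold change of at least 1 in size. In the authors' deposited table, with the sign turned to Xu142fl over Xu142, the copies nearest to the fold criterion were Gh_D11G034900 at 0 DPA (1.19, adjusted p 8.11e-05), Gh_A13G112300 at 0 DPA (-1.28, adjusted p 0.000203) and Gh_D07G228100 at 1 DPA (-1.72, adjusted p 7.71e-07). Values just outside the criteria were not analysed here, because the tables hold called genes. Below, log2 ratios are those of the plain group means, Xu142fl over Xu142, with the SE from the spread between libraries, and they are larger in size than the authors' shrunken values.

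Gh_D13G184900 was the copy with the most reads. It lies on chromosome D13 from 54662081 to 54663206 on the plus strand of the authors' own build, which is not given in the sources used here, and its deposited length is 900 bases. At 1 DPA its normalised reads in Xu142 were 1106, 1638 and 1717 in replicates 1, 2 and 3. In Xu142fl they were 11.04, 9.22 and 13.6. Every Xu142 library was high, every Xu142fl library was near the floor, and the groups did not overlap. The means were 1487 ± 332 and 11.3 ± 2.21 (SD, n = 3), a 132-fold difference and a log2 ratio of -7.04 ± 0.25.

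The same copy was also listed at 0 DPA, with 284, 327 and 186 normalised reads in Xu142 and 46.0, 13.0 and 16.6 in Xu142fl. The groups did not overlap there either, and Xu142fl replicate 1 stood above the other 2 libraries of its group. The means were 265 ± 72.4 and 25.2 ± 18.1 (SD, n = 3), a log2 ratio of -3.40 ± 0.64. Without Xu142fl replicate 1 the log2 ratio was -4.16. The fold between the genotypes was thus 10.5 at 0 DPA and 132 at 1 DPA, from tables that were normalised separately.

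Gh_A13G181700 (chromosome A13, 98830705 to 98832125, plus strand, 1195 bases) was the A-subgenome counterpart of that gene by its neighbours, as described further on. At 1 DPA it stood at 496, 1173 and 1272 normalised reads in Xu142 and at 16.1, 18.4 and 21.0 in Xu142fl. Xu142 replicate 1 was well below the other 2 Xu142 libraries, yet far above each Xu142fl library. The means were 980.4 ± 422 and 18.5 ± 2.47 (SD, n = 3), a 53.0-fold difference and a log2 ratio of -5.73 ± 0.38. This copy was listed at 1 DPA and on no other day.

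**Figure D1:**
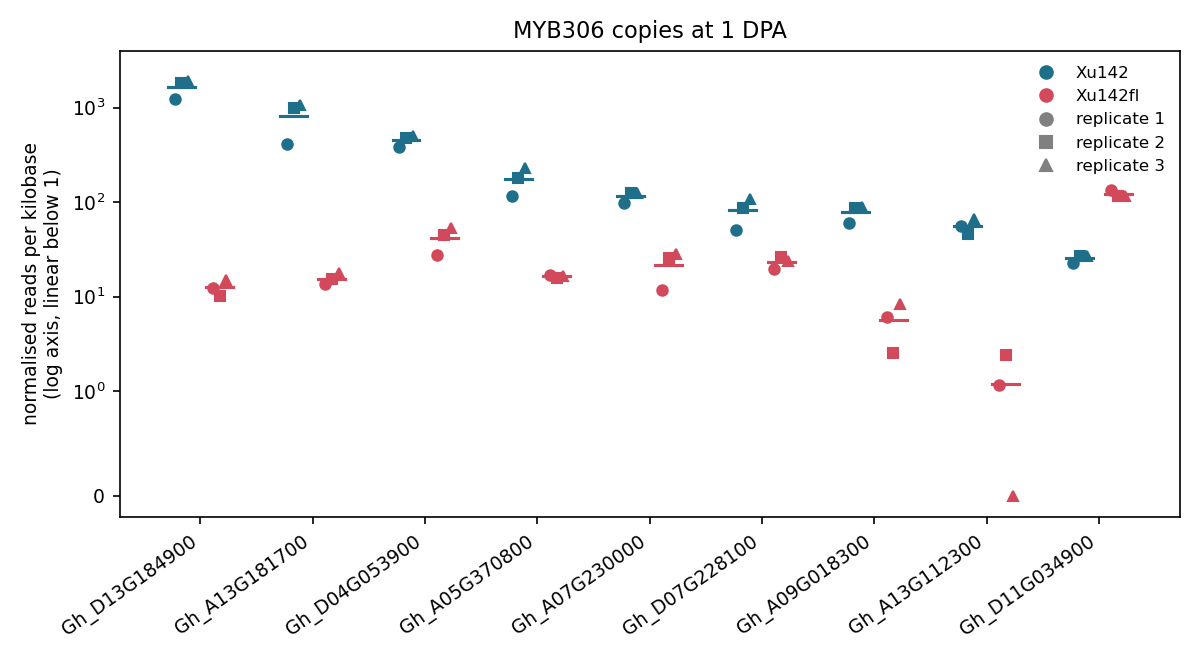
Normalised reads per kilobase of each MYB306 copy at 1 DPA (log axis, linear below 1). Points are libraries, with shapes for replicates and colours for genotypes, and bars are group means (n = 3). The copies are ordered by their Xu142 level, from Gh_D13G184900 at 1653 to Gh_D11G034900 at 25.3, and Gh_D11G034900 is the copy with the higher values in Xu142fl.

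Gh_D04G053900 and Gh_A05G370800 came next in Xu142 at 1 DPA and had ratios of like size. Gh_D04G053900 (chromosome D04, 7744906 to 7746846, minus strand, 978 bases) had 375, 465 and 494 normalised reads in Xu142 and 27.1, 44.1 and 51.6 in Xu142fl. Its means were 445 ± 61.7 and 40.9 ± 12.6 (SD, n = 3), a log2 ratio of -3.44 ± 0.28. Among the 8 lower copies it kept the highest mean in Xu142fl, and its groups were still far apart.

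Gh_A05G370800 (chromosome A05, 100018618 to 100020091, plus strand, 1309 bases) had 152, 235 and 299 normalised reads in Xu142 and 22.1, 20.5 and 21.6 in Xu142fl. The Xu142fl libraries lay close together, while those of Xu142 spread widely, again with replicate 1 the lowest. Its means were 229 ± 73.9 and 21.4 ± 0.805 (SD, n = 3), a log2 ratio of -3.42 ± 0.27.

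Among the 8 copies that were lower at 1 DPA, those on chromosome 7 had the smallest ratios. Gh_A07G230000 (chromosome A07, 92377153 to 92378228, plus strand, 849 bases) had 83.8, 106.4 and 106.4 normalised reads in Xu142 and 10.04, 21.5 and 23.8 in Xu142fl. Gh_D07G228100 (chromosome D07, 54561042 to 54562488, plus strand, 1225 bases) had 62.0, 105 and 132 in Xu142 and 24.1, 31.8 and 28.9 in Xu142fl. In both genes every Xu142 library was above every Xu142fl library. The log2 ratio was -2.42 ± 0.35 for Gh_A07G230000, from means of 98.9 ± 13.1 and 18.5 ± 7.39, and -1.82 ± 0.32 for Gh_D07G228100, from means of 99.8 ± 35.4 and 28.3 ± 3.89 (SD, n = 3).

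Gh_A09G018300 and Gh_A13G112300 were low in Xu142 and close to the floor in Xu142fl. Gh_A09G018300 (chromosome A09, 4313952 to 4315222, minus strand, 822 bases) had 49.6, 70.9 and 72.5 normalised reads in Xu142 and 5.02, 2.05 and 6.81 in Xu142fl at 1 DPA. Its means were 64.4 ± 12.8 and 4.62 ± 2.40 (SD, n = 3), a log2 ratio of -3.80 ± 0.46. Behind the Xu142fl mean stand 19 reads over 3 libraries, so counting error is a large part of it.

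Gh_A13G112300 (chromosome A13, 63921885 to 63922959, plus strand, 858 bases) was listed at 0 and 1 DPA. In Xu142 it had 21.3, 19.97 and 10.3 normalised reads at 0 DPA and 47.6, 39.6 and 57.3 at 1 DPA. Xu142fl had 1 read in replicate 1 and 0 in the others at 0 DPA, and 1, 2 and 0 reads in replicates 1, 2 and 3 at 1 DPA. All Xu142 libraries were above all Xu142fl libraries on both days, but with so few reads the size of the ratio is loosely known. With the reads of each group added up, 53 against 1 at 0 DPA gave a ratio of 51.9 of Xu142 to Xu142fl after scaling (95% exact binomial interval 8.92 to 2087), and 124 against 3 at 1 DPA gave 60.4 (20.2 to 297). These intervals cover counting error only.

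Gh_D11G034900 went the other way. It lies on chromosome D11 from 2846472 to 2847592 on the plus strand, with a deposited length of 873 bases, and was the copy listed as higher in Xu142fl on both days. At 0 DPA it had 27.4, 30.9 and 18.6 normalised reads in Xu142 and 85.3, 76.8 and 68.5 in Xu142fl. At 1 DPA it had 19.6, 23.2 and 23.4 in Xu142 and 117, 101 and 102 in Xu142fl. The Xu142fl libraries were above all Xu142 libraries on each day. The log2 ratio was 1.59 ± 0.23 at 0 DPA, from means of 25.6 ± 6.34 and 76.9 ± 8.41, and 2.27 ± 0.11 at 1 DPA, from means of 22.1 ± 2.11 and 107 ± 9.18 (SD, n = 3), or 3.004-fold and 4.84-fold.

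At 0 DPA the authors' calls rested on 820 and 72 reads in Xu142 and Xu142fl for Gh_D13G184900, and on 79 and 229 for Gh_D11G034900. For Gh_A13G112300 they were 53 and 1. A refit of the recovered reads of the listed genes gave adjusted p-values that depended on the test used. In a DESeq2 refit with the deposited scaling they were 3.54e-09 for Gh_D13G184900, 0.000545 for Gh_D11G034900 and 0.00157 for Gh_A13G112300. Refits without 1 library were made with edgeR alone. With edgeR's quasi-likelihood test and Benjamini-Hochberg adjustment over the genes the authors tested, Gh_D13G184900 had an adjusted p of 0.00204 and stayed under 0.05 with any 1 of the 6 libraries left out. With DESeq2 size factors from the listed genes its edgeR adjusted p was 0.117, and Gh_D11G034900 was then the copy still called. Gh_D11G034900 had an edgeR adjusted p of 0.0277, and with 1 library left out it lay between 0.0631 (without Xu142 replicate 3) and 0.115 (without Xu142 replicate 1), at or above 0.05 in each of the 6 cases. For Gh_A13G112300 the edgeR adjusted p was 0.00564, and it was 0.0515 without Xu142fl replicate 2. At 1 DPA all 9 copies stayed under 0.05 with any 1 library left out. These p-values repeat the contrast that chose the copies and are given for the weight of single libraries.

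**Figure D2:**
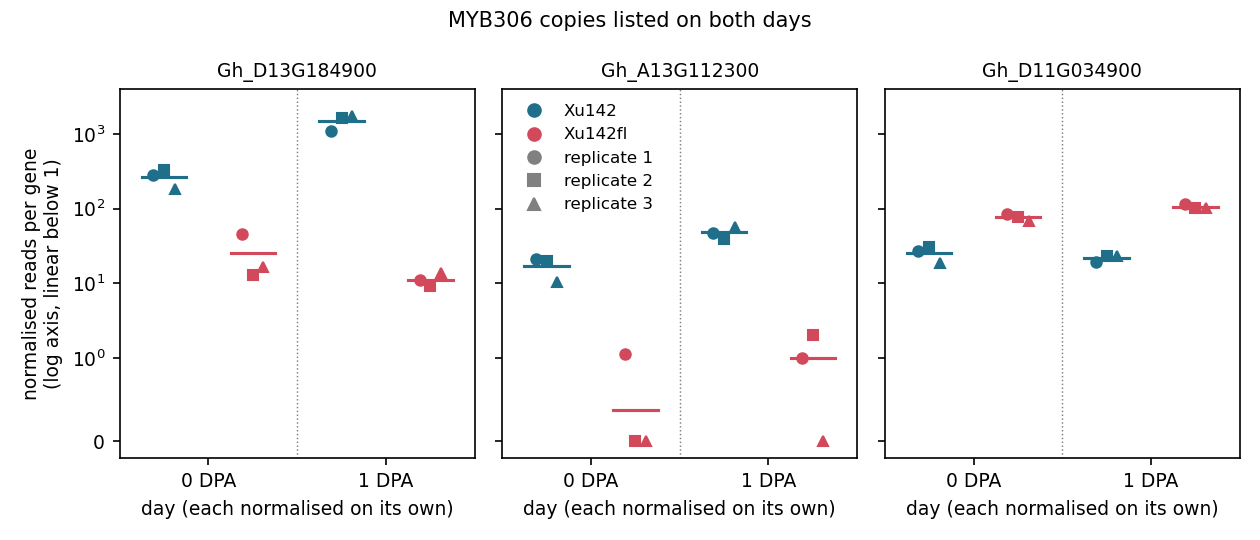
Normalised reads per gene of the 3 MYB306 copies listed at 0 and 1 DPA (log axis, linear below 1). Points are libraries, bars are group means (n = 3), and each day was normalised on its own. Gh_D13G184900 and Gh_A13G112300 are lower in Xu142fl on both days and Gh_D11G034900 is higher on both.

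Levels of different copies were compared per kilobase of the deposited length. In Xu142 at 1 DPA Gh_D13G184900 led with 1653 ± 369 normalised reads per kilobase, followed by Gh_A13G181700 with 820.4 ± 353, Gh_D04G053900 with 455 ± 63.1, Gh_A05G370800 with 175 ± 56.5 and Gh_A07G230000 with 116 ± 15.4 (SD, n = 3). Gh_D07G228100 (81.4 ± 28.9), Gh_A09G018300 (78.3 ± 15.6), Gh_A13G112300 (56.1 ± 10.4) and Gh_D11G034900 (25.3 ± 2.41) came last. The first copy was clear of the second, the third of the fourth and the eighth of the ninth, while the ranges of the other neighbours in this order overlapped. Gh_D07G228100 and Gh_A09G018300 also changed places between libraries, with the former above the latter in 1 of 3.

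In Xu142fl at 1 DPA the order was headed by Gh_D11G034900 with 122 ± 10.5 normalised reads per kilobase, followed by Gh_D04G053900 with 41.9 ± 12.8 (SD, n = 3). The ranges of these 2 copies did not overlap with each other or with that of the next one. Gh_D07G228100 (23.1), Gh_A07G230000 (21.7), Gh_A05G370800 (16.3), Gh_A13G181700 (15.5) and Gh_D13G184900 (12.5) followed, with ranges that overlapped from each to the next. Gh_A09G018300 (5.63) and Gh_A13G112300 (1.19) were the lowest.

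Summed over the 9 copies, Xu142 held 3460.1 ± 902 normalised reads per kilobase at 1 DPA and Xu142fl held 260.2 ± 17.4 (SD, n = 3). Gh_D13G184900 made 48.1% ± 2.18 of the sum in Xu142 and 4.81% ± 0.764 in Xu142fl. Gh_D11G034900 made 0.757% ± 0.148 in Xu142 and 47.3% ± 7.03 in Xu142fl. The copy with the largest share in one genotype was thus among the small ones in the other. Shares within a library do not depend on the scaling of its table.

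**Figure D3:**
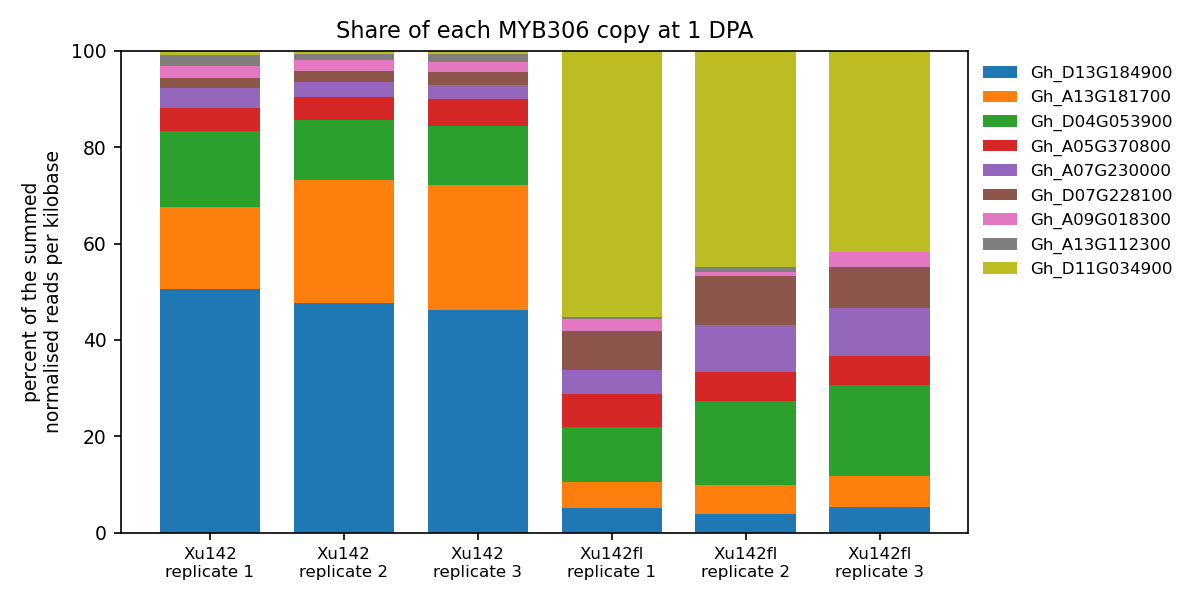
Share of each MYB306 copy in the summed normalised reads per kilobase of the 9 copies, in percent, for each of the 6 libraries at 1 DPA. Gh_D13G184900 fills 46.3% to 50.5% of the Xu142 bars and Gh_D11G034900 fills 41.8% to 55.2% of the Xu142fl bars.

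At 0 DPA the 3 listed copies showed the same contrast. Gh_D13G184900 made 85.7% ± 0.703 of their summed reads per kilobase in Xu142 and 22.4% ± 10.4 in Xu142fl, and Gh_D11G034900 made 8.57% ± 0.271 and 77.3% ± 10.9 (SD, n = 3). Gh_A13G112300 made 5.74% ± 0.851 in Xu142 and 0.290% in Xu142fl, the latter from 1 read.

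The balance of copies between days was read as a ratio of 2 copies within a library, which does not depend on the scaling. This ratio was not itself a criterion, but the copies compared are those that the genotype contrast listed on both days. As given above, the Xu142 group at 0 DPA held transcripts otherwise seen in Xu142fl. The part of this in the ratios between days was not tested. These are ratios of reads, not adjusted for gene length. In Xu142 the log2 ratio of Gh_D13G184900 to Gh_D11G034900 was 3.34 ± 0.05 at 0 DPA and 6.01 ± 0.21 at 1 DPA (SD, n = 3). It ran from 3.29 to 3.39 and from 5.78 to 6.16, so the days did not overlap, and the difference of 2.67 is 6.38-fold. In Xu142fl the same ratio was -1.81 ± 0.84 and -3.20 ± 0.29, a difference of -1.40 or 2.64-fold.

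Against Gh_A13G112300, Gh_D13G184900 had a log2 ratio of 3.94 ± 0.21 at 0 DPA and 4.92 ± 0.41 at 1 DPA in Xu142 (SD, n = 3), a difference of 0.98. Gh_D11G034900 over Gh_A13G112300 was 0.60 ± 0.23 and -1.09 ± 0.29 in Xu142, a difference of -1.69. In Xu142fl Gh_A13G112300 had too few reads for such a test. Each of these 4 comparisons of days, made over 3 libraries against 3, had p = 0.10 in an exact permutation test (two-sided, Benjamini-Hochberg adjusted p = 0.10). This is the smallest p that 3 against 3 allow, so none of the 4 can pass 0.05 in this design, although in each the 3 libraries of 1 day were all above the 3 of the other.

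Counterparts in the A and D subgenomes were assigned by their surroundings. An A and a D copy were taken as a pair when at least 5 protein names were shared between the listed genes within 1000 kb of each at 1 DPA. This gave 3 pairs. Gh_A13G181700 and Gh_D13G184900 shared 5 names, Gh_A05G370800 and Gh_D04G053900 shared 6, and Gh_A07G230000 and Gh_D07G228100 shared 10. Every other combination of an A with a D copy shared 0 or 1. Gh_A13G112300, Gh_A09G018300 and Gh_D11G034900 were given no partner by this rule. Gh_A13G112300 had 4 listed genes within 1000 kb and so could not reach 5 shared names, and Gh_A09G018300 had 6. Whether these copies have a counterpart was therefore not settled.

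Around the chromosome 13 pair the shared names were a GrpE co-chaperone, the arabinosyltransferase ARAD1, Protein QUIRKY, cation/calcium exchanger 2 and a homocysteine methyltransferase that makes methionine. ARAD1, named for an enzyme of pectin arabinan synthesis, was the nearest listed gene after Gh_A13G181700, 29.5 kb away, and stood at 648 normalised reads in Xu142 and 64.3 in Xu142fl there. Its D counterpart Gh_D13G185100 stood at 229 and 56.8. QUIRKY was the shared name that was higher in Xu142fl, with log2 ratios of 1.09 beside the A copy and 1.21 beside the D copy.

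The neighbours of Gh_A05G370800 and Gh_D04G053900 ran in opposite order on their chromosomes, and the copies themselves lie on opposite strands. Zinc-finger homeodomain protein 9 was the nearest shared neighbour, 45.5 kb after the A copy and 34.4 kb before the D copy, and it was higher in Xu142fl with log2 ratios of 1.07 and 1.10. Gibberellin-regulated protein 4 was lower on both sides, with log2 ratios of -4.39 and -3.91. Around the chromosome 7 pair EAF1 B, a chromatin modification protein, was higher on both sides and the other 9 shared names were lower, among them Auxin-induced protein 22D with -2.70 and -3.24. In all 21 cases of a shared name within a pair both counterparts had the same direction.

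**Figure D4:**
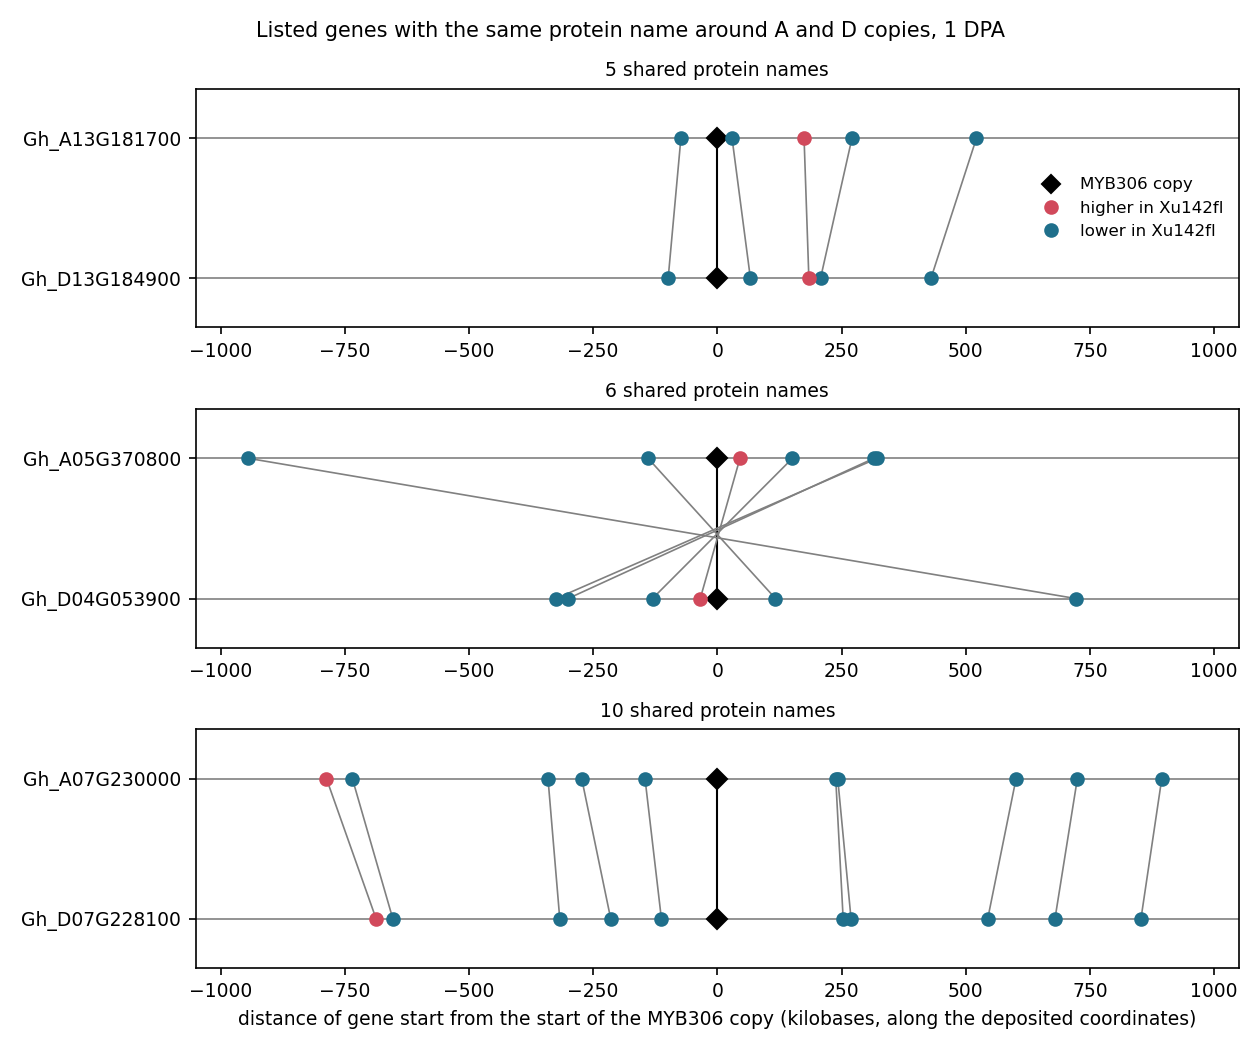
Listed genes at 1 DPA with the same protein name around the 3 A and D pairs of MYB306 copies. The x axis is the distance of each gene's start from that of the MYB306 copy in kilobases, lines join genes of the same name, and colour gives the direction in Xu142fl. The lines run parallel for the chromosome 13 and 7 pairs and cross for Gh_A05G370800 with Gh_D04G053900.

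The share of each pair's reads per kilobase that came from the A copy was compared within libraries at 1 DPA. In the chromosome 13 pair Gh_A13G181700 made 25.3%, 35.04% and 35.8% in Xu142 and 52.3%, 60.1% and 53.7% in Xu142fl. The D copy was thus ahead in each Xu142 library and the A copy in each Xu142fl library, with no overlap between genotypes. The means were 32.03% ± 5.88 and 55.4% ± 4.16 (SD, n = 3). Reads were many in Xu142 (2427 A and 3739 D) and few in Xu142fl (71 and 44).

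In the pair of Gh_A05G370800 and Gh_D04G053900 the A copy made 27.3% ± 3.98 in Xu142 and 29.1% ± 7.60 in Xu142fl (SD, n = 3). The D copy was ahead in all 6 libraries, and the genotypes overlapped. In the chromosome 7 pair Gh_A07G230000 made 66.1%, 59.4% and 53.7% in Xu142 and 37.5%, 49.4% and 54.3% in Xu142fl, so the genotypes overlapped there too. Its log2 ratio to Gh_D07G228100 in Xu142fl, -0.15 ± 0.49, was 0.11 without Xu142fl replicate 1. Both copies of each pair were chosen on the contrast of the genotypes, so these shares were not tested. Copies of a pair are near-identical in sequence as a rule, and how reads that match both were counted is not given in the sources used here, so each A share is uncertain to that extent.

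**Figure D5:**
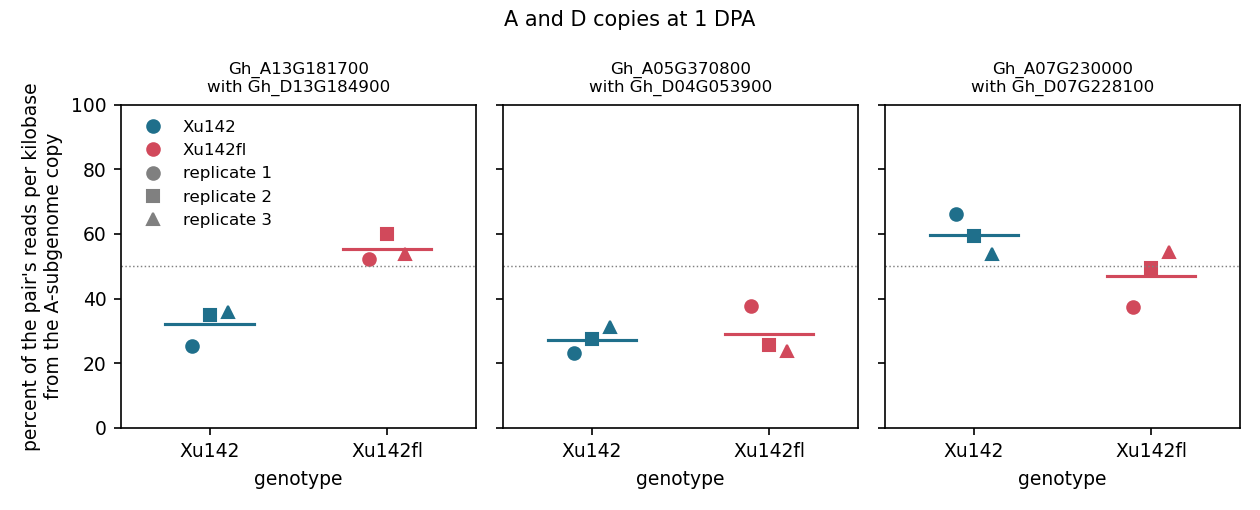
Percent of each pair's reads per kilobase that came from the A-subgenome copy at 1 DPA. Points are libraries, bars are means (n = 3) and the dotted line marks equal levels. The genotypes are apart in the chromosome 13 pair (32.03% and 55.4%) and overlap in the other pairs.

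Among the other relatives of the subgroup, searched for as MYB30, MYB31, MYB60, MYB94 and MYB96, 1 gene was listed on any day. It was Gh_A11G252300, named MYB30 (chromosome A11, 86431408 to 86432630), at 1 DPA. It had 97.2, 139 and 208 normalised reads in Xu142 and 18.1, 17.4 and 20.4 in Xu142fl, and the groups did not overlap. Its means were 148 ± 56.1 and 18.6 ± 1.58 (SD, n = 3), a log2 ratio of -2.99 ± 0.32. No gene named MIXTA, MYB16, MYB17 or MYB106, the MYB factors known for conical cells, trichomes and cuticle, was listed on any day.

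The genes that elongate fatty acids to very long chains, a pathway on which MYB30 and MYB96 act in Arabidopsis, were listed on every day. At -1 DPA 5 were listed, all lower in Xu142fl (median log2 ratio -1.32, against 1.30 over all listed genes). At 0 DPA all 12 listed were lower (median -2.63, against -1.77), and at 1 DPA 36 of 37 were lower (median -3.84, against -1.31). Under DESeq2 size factors taken from the listed genes 10 of the 12 at 0 DPA were lower, and under those or TMM factors 35 of the 37 at 1 DPA. Of all listed genes 45.1%, 63.3% and 67.5% were lower at -1, 0 and 1 DPA.

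Among the elongation genes 3-ketoacyl-CoA synthases carry out the first step of each cycle. KCS10 (Gh_A13G214200) stood at 8777 ± 1369 normalised reads in Xu142 and 1020.4 ± 38.4 in Xu142fl at 1 DPA, and KCS6 (Gh_D01G206100) at 7537 ± 3327 and 438 ± 20.4 (SD, n = 3). PASTICCINO 2 (Gh_A11G222200), the dehydratase of the cycle, stood at 530.1 ± 19.7 and 243 ± 16.8 at 0 DPA. KCS9 (Gh_D01G004700) stood at 367 ± 125 and 38.5 ± 10.5 on that day.

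Wax and cuticle genes were split. The list, matched by protein name, had 2 higher and 7 lower members at -1 DPA (median log2 ratio -1.19), 2 and 11 at 0 DPA (median -2.05), and 10 and 32 at 1 DPA (median -1.73). Lower members made 77.8%, 84.6% and 76.2% of it at -1, 0 and 1 DPA, against 45.1%, 63.3% and 67.5% of all listed genes. The match on glycerol-3-phosphate acyltransferase also took in 1-acyl-sn-glycerol-3-phosphate acyltransferases, which are not named for wax or cuticle. At 1 DPA these were Gh_A01G221100, Gh_D01G217100, Gh_A06G109900 and Gh_D08G017200, all lower, and the count, share and median of that day include them. With DESeq2 size factors from the listed genes 5 were higher and 8 lower at 0 DPA. Long chain acyl-CoA synthetase 1 (Gh_A07G138800), which activates fatty acids, stood at 3499.6 ± 502 and 1459 ± 164 at 0 DPA, and ECERIFERUM 1 (Gh_A05G335100), an enzyme of alkane formation, at 5332 ± 845 and 169 ± 17.5 at 1 DPA (SD, n = 3). Other genes named ECERIFERUM 1 went both ways at 1 DPA. Gh_D04G082000 and Gh_D06G187900 were lower too (log2 ratios -7.40 and -1.29). Gh_D07G116700, Gh_A06G185800 and Gh_A07G120200 were higher in Xu142fl (1.76, 1.32 and 2.43). Lipid-transfer proteins had 3 of 3 members lower at -1 and at 0 DPA, and 10 of 14 lower at 1 DPA (median -2.24), led by Gh_A10G150000 with 50967 ± 8714 and 125 ± 24.3. Their share lower at 1 DPA was 71.4%, against 67.5% of all listed genes. Nothing in these libraries ties a gene of these lists to a MYB306 copy.

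Epidermal markers were lower in Xu142fl together with the 8 lower copies. Of this list 2 of 2 were lower at -1 DPA, 4 of 4 at 0 DPA and 5 of 5 at 1 DPA, and their summed level at 1 DPA ran from 74103 to 83602 normalised reads in Xu142 and from 14499 to 20733 in Xu142fl. Under DESeq2 size factors from the listed genes 3 of the 4 at 0 DPA were lower. Both HDG11 copies, homeodomain factors of the epidermis, were at 0 in Xu142fl at 1 DPA (Gh_D12G292500 and Gh_A12G298900, at 707 ± 39.5 and 603 ± 43.6 in Xu142). Green-tissue genes were lower in 9 of 9, 9 of 9 and 26 of 40, pollen and anther names in 2 of 5, 9 of 10 and 36 of 44, and embryo and endosperm names in 0 of 0, 2 of 2 and 4 of 7 at -1, 0 and 1 DPA. Over all listed genes the share lower was 45.1%, 63.3% and 67.5% on these days. At 1 DPA 65.0% of the green list, 81.8% of the pollen list and 57.1% of the embryo list were lower. No vicilin, legumin, 2S albumin or oleosin was listed. Ovule and seed coat genes were lower in 1 of 2 at 0 DPA and in 7 of 25 at 1 DPA. At 1 DPA the summed levels of the green list were 1186 to 1349 in Xu142 and 468 to 886 in Xu142fl, those of the pollen list 28312 to 39958 and 7854 to 9671, and those of the embryo list 556 to 1049 and 333 to 412. The ovule list summed to 15565 to 17622 and 9778 to 10974. The part of these shifts in the levels of the MYB306 copies was not tested.

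The genes whose pattern was most like that of each copy were found by the root mean square difference of centred log2(value + 1). For the 3 copies listed on 2 days this was done over 12 libraries and 1144 genes. Gh_D13G184900 was most like a beta-glucosidase named BoGH3B (Gh_D13G115700, difference 0.305), a geraniol 8-hydroxylase (Gh_A08G201000, 0.391) and ABIL3 (Gh_D03G099500, 0.402), a protein of the actin-regulating ABI-like family. The beta-glucosidase stood at 181 ± 75.8 and 12.8 ± 7.42 normalised reads in Xu142 and Xu142fl at 0 DPA and at 881 ± 118 and 7.50 ± 1.55 at 1 DPA (SD, n = 3).

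Gh_D11G034900 was most like pectinesterase 1 (Gh_D12G147900, 0.268), FAMA (Gh_D10G154900, 0.285) and soluble inorganic pyrophosphatase 1 (Gh_A07G143800, 0.292). FAMA, known in Arabidopsis for the last step of guard cell formation, stood at 9.30 ± 3.85 and 32.8 ± 7.09 normalised reads at 0 DPA and at 8.12 ± 2.25 and 34.9 ± 8.42 at 1 DPA (SD, n = 3). Gh_A13G112300 was most like Gh_A11G116100 (0.457) and Gh_D01G037200 (0.478), which have no protein name, and a hydrolase (Gh_D06G089900, 0.544).

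For the 6 copies listed at 1 DPA alone the search ran over 6 libraries and 10792 genes, where very many patterns are close. The nearest named gene was a flavonoid 3'-monooxygenase for Gh_A09G018300 (Gh_A03G020300, 0.128), a cytochrome P450 for Gh_D04G053900 (Gh_A05G249100, 0.108) and the aspartic proteinase CDR1 for Gh_A05G370800 (Gh_A13G140700, 0.110). It was an esterase for Gh_A13G181700 (Gh_D07G252600, 0.207), the respiratory burst oxidase RBOHF for Gh_A07G230000 (Gh_A12G205500, 0.122) and a linoleate 9S-lipoxygenase for Gh_D07G228100 (Gh_D13G124500, 0.123). With 2 genotypes of 3 libraries each, likeness here is mostly likeness of the genotype difference in log2(value + 1). Near the floor the added 1 shrinks that difference, so the plain fold can differ. RBOHF stood at 8.61 and 0.72 normalised reads in Xu142 and Xu142fl, a log2 ratio of -3.58 against -2.42 for Gh_A07G230000. The esterase stood at 63.2 and 0. None of the nearest named genes was among the MYB306 copies. The pair partners were not each other's closest genes: Gh_D04G053900 ranked 277th for Gh_A05G370800, with a difference of 0.343. Among the MYB306 copies alone, however, these 2 were the most alike to each other. The same held for Gh_A07G230000 and Gh_D07G228100 (0.495), and Gh_D13G184900 was the copy most like Gh_A13G181700 (0.732).

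Some of the nearest listed genes had the direction opposite to that of the copy. Of all listed genes at 1 DPA 67.5% were lower in Xu142fl, and nothing is read from the counts below against that share. Gh_D11G034900, higher in Xu142fl, lay between 2 genes that were lower, the growth regulator TCP15 (Gh_D11G034600, 49.98 kb before it, log2 ratio -1.94) and Gh_D11G035500 (46.7 kb after it, -1.12), which has no protein name. Gh_A13G112300, lower in Xu142fl, lay between 2 genes that were higher, DETOXIFICATION 21 (Gh_A13G111800, 791 kb before it, 1.18) and a chloroplast S-sulfocysteine synthase (Gh_A13G112400, 50.3 kb after it, 1.15). Gh_A09G018300 had a phosphate transporter PHO1 homolog (Gh_A09G014200, 1185 kb before it, -2.56) on one side and a gene without a protein name that was higher on the other (Gh_A09G018500, 43.4 kb after it, 1.53). At least 1 of the nearest listed genes thus had the opposite direction for each of these 3 copies without an assigned partner. The same held for 4 of the 6 paired copies. Those were Gh_D13G184900 (glutamine synthetase 1, Gh_D13G185000, log2 ratio 1.08), Gh_D04G053900 and Gh_A05G370800 (both with zinc-finger homeodomain protein 9) and Gh_D07G228100 (a transcript without a protein name). That transcript was near the floor, at 0 normalised reads in Xu142 and 4.14 in Xu142fl. Gh_A13G181700 and Gh_A07G230000 had lower genes on both sides.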

How the data were processed

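Ovule RNA was sequenced in 18 libraries, grouped and numbered by their titles. For each of the 3 days the authors deposited 1 table, which lists called genes. The sources used here do not give the aligner, counting tool, strand use, annotation or genome build. The library columns hold a signal that, per the file headers, is given per library and gene; from the values, it is reads divided by 1 factor per library, and 100% of the deposited values came out as whole reads within a tolerance of 0.001. Per the file headers, the deposited log2 fold change sets Xu142 against Xu142fl, and it is printed with the opposite sign. The deposited p-values and adjusted p-values are the authors' own, and the number of genes tested was recovered from their ratio.

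Computed here were group means, log2 ratios with delta-method SE, levels per kilobase of the deposited length, and copy ratios within a library after 0.5 reads were added to each copy. The recovered reads of listed genes were refitted as an alternative with edgeR 4.0.16 (quasi-likelihood), DESeq2 1.42.0 and limma 3.58.1 in R 4.3.3, adjusted over the number of genes tested by the authors. The edgeR refit called 872 listed genes at -1 DPA, 1144 at 0 DPA and 10130 at 1 DPA. It was tested on simulated data. Permutation tests were coded directly in Python 3.11.15. The exact binomial intervals and the Benjamini-Hochberg adjustment of the permutation p-values used scipy 1.17.1. A planned test of A to D ratios across days could not be made, because each pair is listed on 1 day. The ratios between copies across days were chosen after seeing the data, as were the alternatives for them.

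The members and gene lists were chosen with earlier results of these data known. Named genes are all copies, the 3 genes most alike to each copy (for copies listed on 1 day, the first of these with a protein name), the nearest listed genes on either side, the MYB relatives, and list members from the 2 with the highest mean. AGL11 among the ovule markers, both HDG11 genes, the other ECERIFERUM 1 genes and the shared neighbours were named after their values were seen. The tables' gene identifiers matched 0 entries of the RefSeq gene table, so no sequence is shown.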

Additional observations from a re-analysis of the deposited data

How the results depend on the processing

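Over 71 values that left out 1 library and 24 with another pseudocount, the log2 ratios of the copies stayed within 1 SD of the reported values, and none of these ratios of Xu142fl to Xu142 reversed under the alternatives run. The SD meant here is the SE times the square root of 3, which is wide where reads are few. For Gh_A13G112300 at 0 DPA (SE 1.47) it took in -3.76 with a pseudocount of 1, against -5.52. The A to D log2 ratio of Gh_A07G230000 to Gh_D07G228100 in Xu142fl, -0.15, turned to 0.11 without Xu142fl replicate 1. Scaling by factors computed on the listed genes shifted their median log2 ratio by -0.17, 1.11 and 1.21 (TMM) and by -1.11, 1.56 and 1.25 (DESeq2) at -1, 0 and 1 DPA, and 20 of 24 log2 ratios moved. Such factors rest on called genes alone. With TMM and DESeq2 factors in turn, Gh_D13G184900 had -2.26 and -1.86 at 0 DPA and -5.83 and -5.78 at 1 DPA. Gh_D11G034900 had 2.71 and 3.17 at 0 DPA and 3.48 and 3.51 at 1 DPA. At 1 DPA Gh_A13G181700 had -4.49 and -4.44, Gh_D04G053900 -2.23 and -2.18, Gh_A05G370800 -2.20 and -2.16, Gh_A09G018300 -2.59 and -2.55, Gh_A07G230000 -1.21 and -1.16, and Gh_D07G228100 -0.59 and -0.55. For Gh_A13G112300 the log2 ratio was -4.94 at 0 DPA without Xu142fl replicate 2 or 3, and -6.58 and -4.98 at 1 DPA without Xu142fl replicate 2 and 3. It rests on 1 to 3 reads. Without Xu142fl replicate 1 at 0 DPA it had 0 reads in Xu142fl and no finite ratio, so that case is not among the 71 values.

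Called again at 0 DPA were 1 copy by limma with a pseudocount of 0.1, 1 to 2 when 1 library was left out (1 without Xu142fl replicate 2), and 1 with DESeq2 factors (Gh_D11G034900). Of the 1366 listed genes at 0 DPA, limma with that pseudocount called 522, edgeR called 688 to 1016 with 1 library left out (857 without Xu142 replicate 1, 688 without Xu142 replicate 2, 765 without Xu142fl replicate 2 and 798 without Xu142fl replicate 3), and 804 with TMM (501 higher and 303 lower) or 671 with DESeq2 factors (499 and 172). At 1 DPA TMM factors gave 5916 (3505 and 2411) and DESeq2 factors 5820 (3503 and 2317), with 7 copies called and Gh_A07G230000 and Gh_D07G228100 not called. The cause was not tested. When genes under a mean of 10 normalised reads were dropped, 2 of 3 copies remained at 0 DPA.

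Replicate numbers were not taken to pair the libraries: deviations of same-numbered libraries correlated at 0.01 to 0.04 at -1 DPA, 0.10 to 0.19 at 0 DPA, where each correlated best with its own number, and -0.02 to 0.06 at 1 DPA. With a replicate block edgeR called 872, 983 and 10249 listed genes and 0, 2 and 9 copies, and the copy ratios between days had p = 0.25 (exact sign-flip permutation test, the smallest 3 pairs allow). Depth beyond the listed genes is unknown.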
